A study of Mus musculus with 12 samples.

Results

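Malat1, Neat1, Kcnq1ot1 and Lncpint are long RNAs that code for no protein and are known from other work to stay largely in the nucleus. They were followed in NIH-3T3 cells, an immortalised line of mouse fibroblasts, after labelling with 4-thiouridine (4sU). The 4 RNAs were picked by symbol, as 4 of the 17419 genes of the deposited table, with earlier results of these data on their counts and turnover in view. Their own levels, changes and turnover are therefore given as a description, with no test.

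All cells were wild type. Cells given 4sU at 800 µM, for labelling times of 15, 30, 60, 90 or 120 min, were compared with cells given none (no4sU), with 2 libraries (replicates A and B) in each of the 6 groups. The cell uses 4sU in place of uridine in new RNA, and iodoacetamide then alters the incorporated 4sU so that sequencing reads it as C (SLAM-seq). The series title gives the purpose, to see how the labelling time biases quantification. Nothing in the labels says that A and B came from separate cultures, so the p-values below measure only the spread between these libraries. Where RNA sits in the cell was not measured.

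Malat1 is a very abundant transcript of nuclear speckles, the bodies in which splicing factors collect. Neat1 is the scaffold of paraspeckles, bodies that form around its long form and hold proteins such as Nono and Sfpq. Kcnq1ot1 is transcribed from the paternal chromosome, antisense to Kcnq1, and silences neighbouring imprinted genes. Lncpint is a p53-induced transcript linked to the Polycomb repressive complex, which methylates histone H3. Malat1 is known as a stable RNA and Neat1 as a short-lived one.

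Malat1 and Neat1 are neighbours with a related 3′ end. In GENCODE M21 (GRCm38), Malat1 (ENSMUSG00000092341) is a lincRNA on the minus strand at chr19:5795690-5802672, and Neat1 (ENSMUSG00000092274) a lincRNA on the same strand at chr19:5824708-5845478, 22035 bases away. The 3′ ends of Malat1 and of the long form of Neat1 are not made by ordinary polyadenylation but by cleavage ahead of a tRNA-like RNA, and U-rich stretches fold back on an A-rich tail into a triple helix that protects the end. The short form of Neat1 ends by polyadenylation. The 100 bases that end at the shared tail are shown for both RNAs because this end is known to protect them from decay. Capitals mark the 3 stretches of at least 10 bases that both windows hold (13, 16 and 11 bases, in this order). The last is the tail of 11 bases, which 0.436% of 141767 annotated transcripts and 0.287% of long non-coding transcripts hold on the sense strand. The Malat1 window covers chr19:5795982-5796081 and stops 292 bases before the annotated end, and the Neat1 window covers chr19:5824708-5824807 and stops at the annotated end. Both read 5′ to 3′ on the minus strand.
Malat1: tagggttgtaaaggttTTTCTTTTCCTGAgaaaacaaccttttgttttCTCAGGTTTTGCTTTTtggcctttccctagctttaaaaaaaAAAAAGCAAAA
Neat1: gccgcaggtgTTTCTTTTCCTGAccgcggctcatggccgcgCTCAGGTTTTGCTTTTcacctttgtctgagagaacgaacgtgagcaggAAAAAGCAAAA

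Kcnq1ot1 (ENSMUSG00000101609) is annotated as a single unspliced antisense transcript of 93092 bases on the minus strand, chr7:143203458-143296549. It lies inside Kcnq1 (plus strand, chr7:143106362-143427042), which encodes a potassium channel. Lncpint (ENSMUSG00000044471) is a spliced lincRNA on the minus strand at chr6:31082565-31220488, with 16 annotated transcripts. The promoters of Kcnq1ot1 and Lncpint are shown from 250 bases before to 50 after the start, as RefSeq gives them on GRCm38.p6 (minus strand, 5′ to 3′). The level of Malat1 was also higher after long labelling, and its promoter was searched but is not shown. Shared control of these RNAs was not tested. RefSeq's table matched 3 of the 4 RNAs, Neat1 not among them. Capitals mark CCAAT, the letters of the box that factor NF-Y binds, searched on both strands. The Kcnq1ot1 window (chr7:143296498-143296797) held it 3 times, none overlapping, all in the direction of transcription. The windows of Lncpint (chr6:31218425-31218724) and Malat1 (chr19:5802623-5802922) held 0. The Lncpint window lies inside the GENCODE span given above, not at the start of that span. Of 32851 promoter windows of this length 37.4% held CCAAT on either strand, and 3.37% held it 3 or more times.
Kcnq1ot1: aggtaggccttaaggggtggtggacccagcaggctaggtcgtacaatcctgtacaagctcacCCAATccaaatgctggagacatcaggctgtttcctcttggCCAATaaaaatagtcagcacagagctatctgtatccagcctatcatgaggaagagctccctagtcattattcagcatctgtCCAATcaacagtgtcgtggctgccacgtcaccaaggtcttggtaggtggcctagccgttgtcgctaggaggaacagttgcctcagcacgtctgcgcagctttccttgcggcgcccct
Lncpint: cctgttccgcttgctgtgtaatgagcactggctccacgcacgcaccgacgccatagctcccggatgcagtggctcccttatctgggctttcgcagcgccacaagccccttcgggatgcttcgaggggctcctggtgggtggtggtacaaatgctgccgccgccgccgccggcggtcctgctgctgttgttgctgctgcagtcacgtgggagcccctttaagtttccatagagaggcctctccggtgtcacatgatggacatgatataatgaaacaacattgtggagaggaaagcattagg

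Total reads per library were between 9917026 and 13739380, and 11564 genes had enough reads to be tested. The log2 difference between replicates had an SD over genes of 0.11 to 0.12 in the groups with 4sU, and the no4sU pair stood apart at 0.21. Each of the 4 RNAs was lower in no4sU replicate A than in B, by a log2 difference of -1.0 for Malat1, -0.06 for Neat1, -0.36 for Kcnq1ot1 and -0.23 for Lncpint. In the 60 min pair all 4 were higher in A, by 0.45, 0.21, 0.68 and 0.69 in the same order. Changes against no4sU are therefore set beside those against 15 min. Fibroblast genes were abundant (Fn1, which encodes fibronectin, at 6155 CPM, the counts per 1000000 reads of a library, without 4sU), while the epithelial, blood and endothelial markers Cdh1, Krt8, Ptprc and Pecam1 had mean counts of 2.08, 0.708, 0.833 and 0.917 reads. The macrophage marker Cd68 and the endothelial Cdh5 had more, with mean counts of 62.6 and 13.3 reads. Cd68 was at 5.03 CPM after 15 min and 6.31 after 120 min, and Cdh5 at 1.20 and 0.802, and neither passed the test (edgeR adjusted p of 0.228 and 0.313). In 120 against 15 min, 5 of 9 fibroblast markers rose by edgeR, where 7.93% of all tested genes rose and 11.3% fell, with a median log2 fold change of 0.20 over the 9.

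Malat1 had by far the most reads of the 4 RNAs, and its level was highest after 120 min. In CPM, scaled with TMM factors of 0.97 to 1.02, replicates A and B were at 973 and 1946 without 4sU, 1098 and 1001 after 15 min, and 1127 and 1378 after 30 min. They were at 1847 and 1357 after 60 min, 1864 and 2334 after 90 min, and 3125 and 3305 after 120 min. Both 120 min libraries lay above every other library, and the wide no4sU pair overlapped all groups except 120 min. The 60 min libraries overlapped those after 30 min and lay just below those after 90 min. The 120 min mean was 3215 ± 127 CPM (SD, n = 2), against 1049 ± 68.8 after 15 min. The fitted log2 fold change was 1.62 ± 0.196 (SE), or 3.06-fold, against 15 min. Against no4sU it was 1.14 ± 0.193, but it moved to 0.72 when no4sU replicate A was left out, and to 1.72 when no4sU replicate B was.

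Neat1 had the steadiest level of the 4. Its CPM in A and B were 166 and 173 without 4sU, 142 and 112 after 15 min, and 152 and 172 after 30 min. They were 196 and 170 after 60 min, 172 and 166 after 90 min, and 174 and 187 after 120 min. The 15 min libraries were the lowest, and all other groups lay between 152 and 196 CPM, with the 120 min libraries just above the no4sU ones. The log2 fold change of 120 against 15 min was 0.50 ± 0.0888 (SE), and it was 0.68 without 15 min replicate A and 0.34 without 15 min replicate B. Against no4sU the log2 fold change was -0.41 ± 0.089 after 15 min and 0.09 ± 0.0868 after 120 min, so the change over labelling time came with the low 15 min level.

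Kcnq1ot1 was about level up to 30 min and higher at each later time. Its CPM in A and B were 10.9 and 14 without 4sU, 13.9 and 13.0 after 15 min, and 14.7 and 14.6 after 30 min. They were 28.5 and 17.9 after 60 min, 32.1 and 31.0 after 90 min, and 46.5 and 47.1 after 120 min. The libraries of no4sU and 15 min overlapped, and from 30 min each group lay wholly above the shorter times. The log2 fold change was 0.86 ± 0.162 (SE) after 60 min, 1.33 ± 0.156 after 90 min and 1.90 ± 0.146 after 120 min against no4sU, and 1.80 ± 0.147 (3.48-fold) for 120 against 15 min.

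Lncpint had the fewest reads and the highest fold change. Its estimated counts were 22 and 34 reads in no4sU A and B, 27.5 and 38 after 15 min, 38 and 30 after 30 min, 98 and 80 after 60 min, 107 and 83.5 after 90 min, and 148 and 182 after 120 min. In CPM it was at 2.08 and 2.43 without 4sU, 2.42 and 3.43 after 15 min, and 3.19 and 2.99 after 30 min. It was at 9.71 and 6.03 after 60 min, 10.4 and 8.06 after 90 min, and 13.8 and 13.6 after 120 min. All libraries up to 30 min were at or below 3.43 CPM and all from 60 min at or above 6.03 CPM, with the 60 and 90 min libraries overlapping. The log2 fold change against no4sU was 0.44 ± 0.306 (SE) after 30 min, 1.75 ± 0.249 after 60 min and 2.58 ± 0.222 after 120 min. For 120 against 15 min it was 2.22 ± 0.215, or 4.64-fold.

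**Figure D1:**
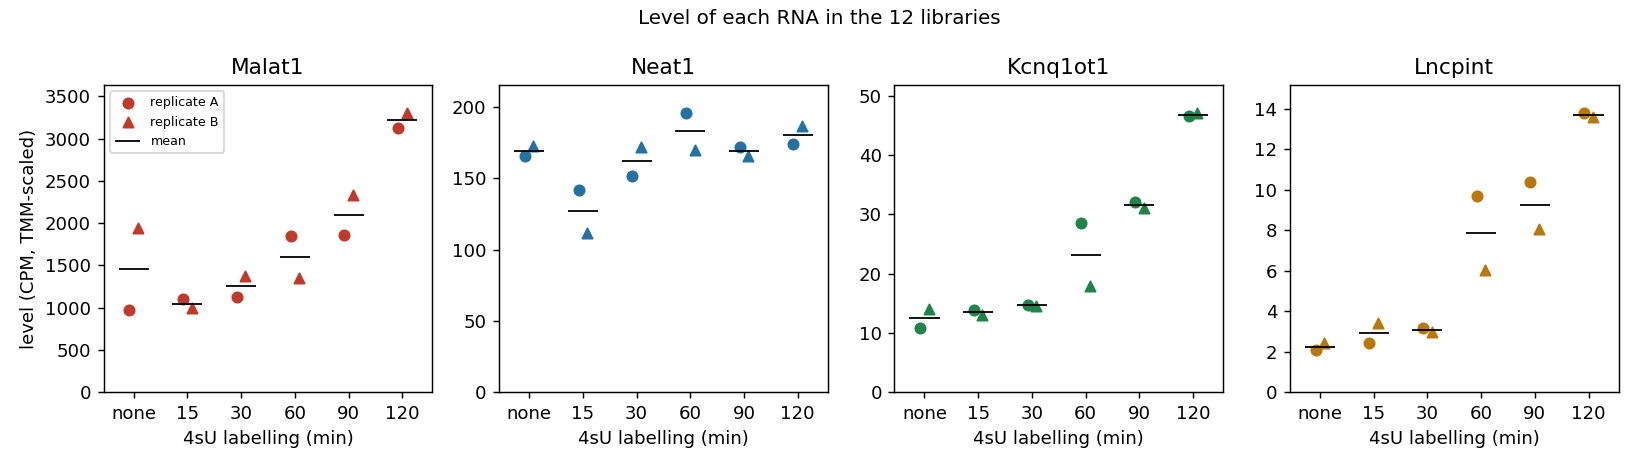
Level of each RNA in CPM (vertical axis, each panel with its own scale from 0) in the 12 libraries by labelling time in min, with circles for replicate A, triangles for replicate B and a line at the mean of 2. Malat1, Kcnq1ot1 and Lncpint are highest after 120 min (means of 3215, 46.8 and 13.7 CPM), while Neat1 stays between 112 and 196 CPM.

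In the 120 against 15 min comparison, the groups did not overlap and 120 min was higher for 4 of the 4 RNAs, where 33.4% of all tested genes did so. Against no4sU the same held for 4 of the 4 after 120 min (24.9% of tested genes), for 2 of the 4 after 90 min (19.9%) and for 2 of the 4 after 60 min (15.2%), in both cases Kcnq1ot1 and Lncpint. At 30 min it held for the same 2 RNAs (13.6%), and after 15 min Neat1 was lower without overlap (14.3%). The RNAs were chosen from such contrasts, so these counts are not evidence about them. In order of the log2 fold change of 120 against 15 min over the 11564 tested genes, Lncpint was number 6 from the top, Kcnq1ot1 number 9, Malat1 number 13 and Neat1 number 245. Against no4sU after 120 min, Neat1 was number 3800.

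To set different RNAs side by side, their levels were divided by length. This holds only if reads come from along the whole RNA, which was not checked, and any poly(A) selection is not given. The deposited lengths were 6983 bases for Malat1, 20771 for Neat1 and 93092 for Kcnq1ot1, each the full annotated span, and 1676 bases for Lncpint, its longest annotated transcript. Per kilobase of that length and without 4sU, Malat1 was at 209 CPM, Neat1 at 8.16, Lncpint at 1.35 and Kcnq1ot1 at 0.133. At 120 min the order was the same, at 460, 8.68, 8.17 and 0.503 CPM per kilobase, and the Neat1 and Lncpint means had come close together. Which transcript forms gave the reads was not analysed here. The short form of Neat1 and spliced forms of Lncpint would change the divisor.

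Turnover was read from the new-to-total ratio (NTR), the share of an RNA estimated from the conversions to have been made during labelling, deposited per library as a posterior maximum with a 90% interval. Over the 9065 genes that averaged 100 reads or more, the median NTR was 0.01 after 15 min, 0.052 after 30 min, 0.155 after 60 min, 0.244 after 90 min and 0.354 after 120 min. The 4 RNAs departed from that course in different ways.

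Malat1 began above most genes and ended below most. Its NTR in A and B was 0.0619 and 0.0362 after 15 min, 0.12 and 0.133 after 30 min, 0.176 and 0.202 after 60 min, 0.233 and 0.176 after 90 min, and 0.225 and 0.225 after 120 min. The 90 min libraries overlapped both the 60 and the 120 min ones, and the means of the 60, 90 and 120 min groups were close, at 0.189, 0.204 and 0.225. Among the 9065 genes its percentile was 95.2 and 94.5 after 15 min, 57.1 and 62.9 after 60 min, and 28.5 and 29.5 after 120 min. The 90% intervals were narrow, from 0.22 to 0.229 in 120 min replicate A. After 15, 60 and 90 min those of A and B did not overlap (0.226 to 0.239 and 0.171 to 0.182 after 90 min). The intervals thus do not cover the spread between replicates.

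Neat1 was among the fastest-labelled transcripts, at a percentile of 88.9 or above in every library. Its NTR in A and B was 0.162 and 0.11 after 15 min, 0.382 and 0.411 after 30 min, 0.645 and 0.758 after 60 min, 0.743 and 0.784 after 90 min, and 0.827 and 0.877 after 120 min. Its percentile among the 9065 genes was 99.6 in both 15 min libraries and 88.9 and 91.4 after 120 min. The 60 and 90 min libraries overlapped, and no other neighbouring times did.

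Kcnq1ot1 was labelled later than Neat1 but then almost wholly. Its NTR in A and B was 0.0376 and 0.0148 after 15 min, 0.151 and 0.215 after 30 min, 0.52 and 0.572 after 60 min, 0.881 and 0.829 after 90 min, and 0.949 and 0.956 after 120 min. Its percentile among the 9065 genes was 86.7 and 75.4 after 15 min, 89.5 and 94.8 after 30 min, and 95.7 and 94.7 after 120 min, so it lay above most genes throughout. No neighbouring times overlapped, and the Neat1 value was higher up to 60 min and lower after 90 and 120 min. Its 15 min estimate was imprecise, with a 90% interval from 0.0315 to 0.108 in replicate A, where its maximum lay close to the lower end.

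Lncpint, with few reads, had the widest intervals. Its NTR in A and B was 0.0845 and 0.0328 after 15 min and 0.259 and 0.249 after 30 min, with a 90% interval from 0.117 to 0.535 in 30 min replicate A. From 60 min it was near its ceiling, at 1.0 and 0.902 after 60 min, 0.96 and 0.867 after 90 min, and 1.0 and 0.945 after 120 min. The step between 30 and 60 min in its NTR was at the same place as the step in its level.

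**Figure D2:**
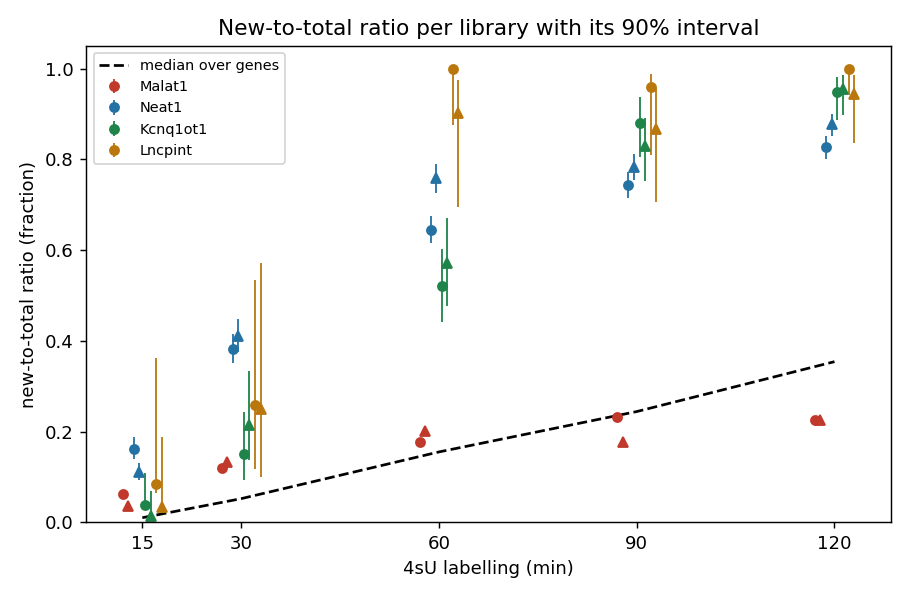
New-to-total ratio (fraction) of each RNA by labelling time in min, with circles for replicate A and triangles for replicate B, shifted sideways for legibility. Bars show the deposited 90% interval of a library, extended to the point where the Lncpint value of 1.0 lies above it. The dashed line is the median over 9065 genes. Malat1 crosses the median line between 60 and 90 min and ends at 0.225, while the other RNAs end between 0.827 and 1.0.

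Uridines are what 4sU replaces. The share of U in the annotated transcript was 28.9% for Malat1, 30.0% for Neat1, 26.4% for Kcnq1ot1 and 23.4% for Lncpint, and the median over 11550 tested genes was 25.0%. In the same order, the mean NTR after 120 min was 0.225, 0.852, 0.952 and 0.973. The part of U content in the NTR was not tested.

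The level of each RNA was split into a new part (NTR times CPM) and a pre-existing part (the rest). A transcript that is only replaced loses pre-existing RNA as labelling goes on, and over the 9065 genes the pre-existing part after 120 min was a median 0.649 of that after 15 min. CPM is a share of the library, so these parts are relative to all other RNA.

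In Malat1 the pre-existing part was the larger one and was higher at longer times. It was 997 ± 46.4 CPM (SD, n = 2) after 15 min, 1093 ± 144 after 30 min, 1303 ± 312 after 60 min, 1676 ± 348 after 90 min and 2493 ± 97.7 after 120 min. The ratio of 120 to 15 min was 2.50, first among the 9065 genes, with Ogn next at 1.58. It was between 2.42 and 2.58 with any single library of these times left out. In both 120 min libraries, at 2423 and 2562 CPM, the RNA called pre-existing exceeded the whole Malat1 level of both 15 min libraries. A ratio above 1 was found for 9.94% of genes, and a pre-existing part above the earlier whole for 4.85%. The new part of Malat1 went from a mean of 52.1 to 723 CPM, a ratio of 13.9 where the median gene had 29.9.

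Neat1 and Kcnq1ot1 had less pre-existing RNA at longer times. For Neat1 it was 110 ± 13.6 CPM (SD, n = 2) after 15 min, 55.3 ± 20.1 after 60 min and 26.6 ± 5.11 after 120 min, a ratio of 0.242. Its new part was 17.7 CPM after 15 min, 128 after 60 min, 129 after 90 min and 154 after 120 min. For Kcnq1ot1 the pre-existing part was 13.1 ± 0.384 CPM after 15 min, 10.7 ± 4.27 after 60 min and 2.23 ± 0.205 after 120 min, a ratio of 0.17. Its new part was 0.357 CPM after 15 min, 12.5 after 60 min, 27.0 after 90 min and 44.6 after 120 min. The new part alone thus exceeded the whole level of 15 min by 90 min.

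Lncpint showed the same order of events on fewer reads. Its new part had means of 0.158 CPM after 15 min, 0.786 after 30 min, 7.57 after 60 min, 8.47 after 90 min and 13.3 after 120 min. Its pre-existing part was 2.77 and 2.31 CPM after 15 and 30 min and 0.294, 0.746 and 0.373 CPM after 60, 90 and 120 min. Replicate A had estimates of 0 after 60 and 120 min. They came from an NTR maximum of 1.0, above its own 90% interval (0.876 to 0.997 and 0.941 to 0.999).

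**Figure D3:**
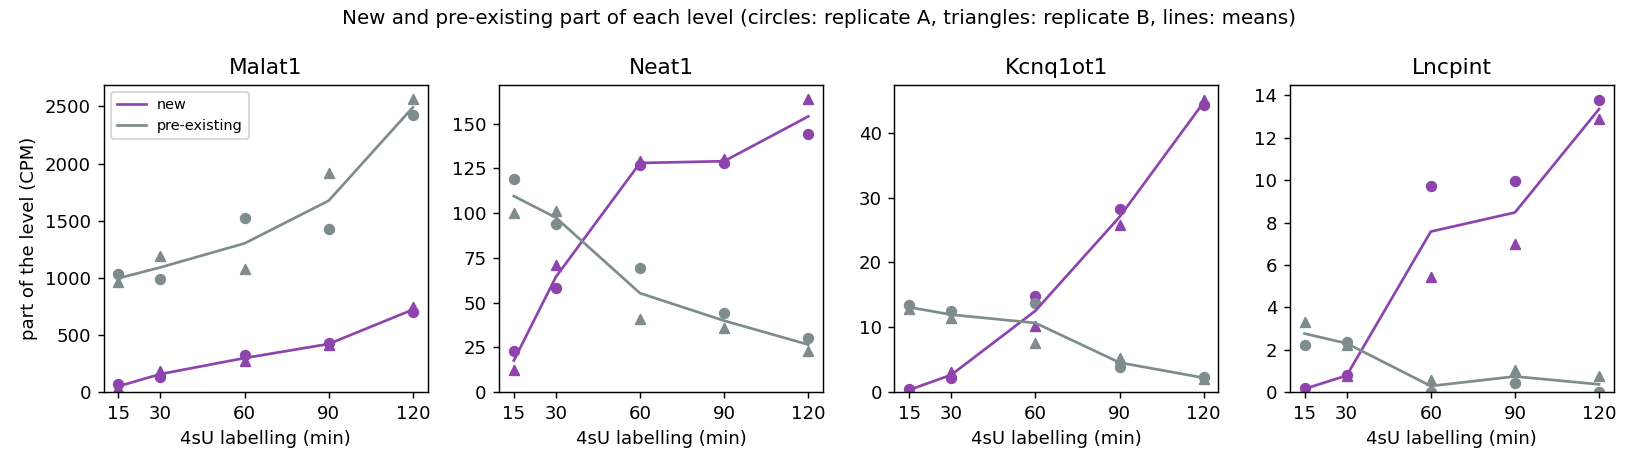
New and pre-existing part of each level in CPM (each panel with its own scale from 0) by labelling time in min, with circles for replicate A, triangles for replicate B and lines through the means of 2. The pre-existing part of Malat1 goes from 997 to 2493 CPM. In the other RNAs the new part crosses above the pre-existing part, which is lower after 120 than after 15 min.

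The apparent half-life, the time after which new RNA would make up as much as old RNA, was computed from the NTR of each library as if the level were constant and all new RNA were labelled from the start. The levels of Malat1, Kcnq1ot1 and Lncpint above were not constant, and the value of the median gene was also shorter at longer labelling. For Neat1 it was 74.1 ± 21.3 min (SD, n = 2) after 15 min and then about level, at 41.3 ± 2.85 after 30 min, 34.7 ± 7.64 after 60 min, 43.3 ± 3.68 after 90 min and 43.6 ± 5.51 after 120 min.

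The apparent half-life of Malat1 was 222 ± 84.3 min (SD, n = 2) after 15 min, 154 ± 11.9 after 30 min, 200 ± 22.0 after 60 min, 279 ± 60.6 after 90 min and 327 ± 0.468 after 120 min. From 30 min on its mean was longer at longer labelling, and both 120 min libraries lay above both 15 min libraries. Of 2280 genes with an NTR between 0.01 and 0.99 in all these libraries, 3.38% had this order, Malat1 among them, and 86.0% had the opposite one. The median gene was taken in each library over the genes with a half-life, without those estimated as wholly pre-existing or wholly new. Its value went from 670 and 1120 min after 15 min in A and B to 193 and 201 min after 120 min.

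Kcnq1ot1 went the other way, further than the median gene. It was at 484 ± 301 min (SD, n = 2) after 15 min, 107 ± 29.1 after 30 min, 52.8 ± 5.39 after 60 min, 32.3 ± 4.29 after 90 min and 27.3 ± 0.907 after 120 min. Lncpint was at 215 ± 137 min after 15 min, 71.0 ± 2.32 after 30 min and 25.2 ± 8.12 after 90 min. The SDs do not show the precision of single libraries. The 90% NTR intervals of the 30 min libraries A and B gave 27.2 to 167 and 24.6 to 197 min for Lncpint. After 15 min they gave 23.1 to 156 and 50.0 to 401 min for Lncpint, and 91.2 to 325 and 146 to 861 min for Kcnq1ot1. An NTR of 1.0 gives no half-life, so for Lncpint only replicate B gave one after 60 and 120 min, at 17.9 and 28.6 min.

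**Figure D4:**
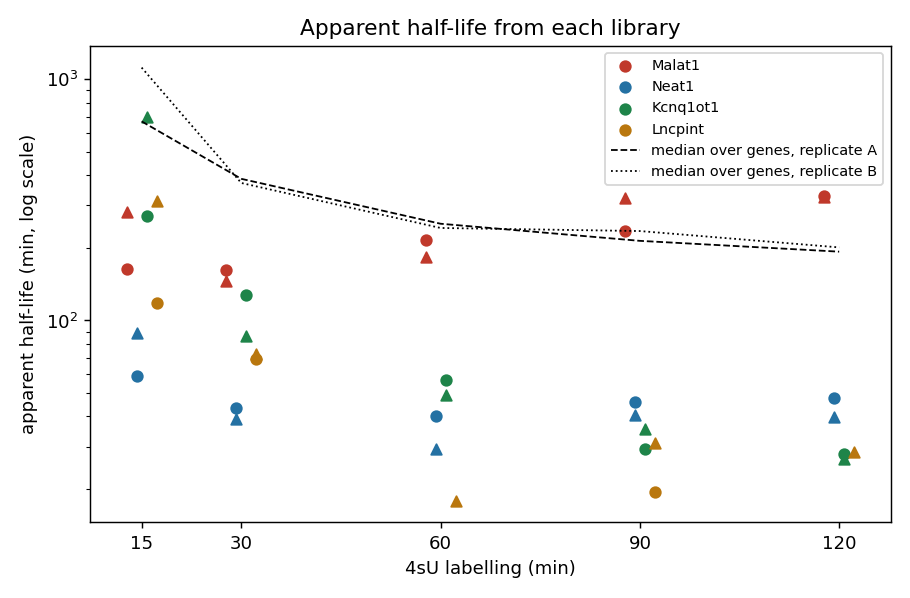
Apparent half-life in min (log scale) from each library by labelling time in min, with circles for replicate A and triangles for replicate B. Dashed and dotted lines are medians in A and B over the genes that had a half-life in that library. Malat1 sits below the medians after 15 min (163 and 282 min) and above them after 120 min (327 and 326 min), and Neat1 stays between 29.3 and 89.1 min.

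Each RNA was then set beside genes of like turnover, with an NTR after 120 min within 0.05 of its own. These genes averaged 100 reads or more, which Lncpint itself did not, and genes with fewer reads were left out. The medians of these genes were below 0 at a high NTR and above 0 at a low one. Near Malat1, 1743 genes had a median log2 fold change of 0.10 for 120 against 15 min (0.05 to 0.95 quantiles -0.09 to 0.27), where Malat1 was at 1.62. Near Neat1, 486 genes had a median of -0.26, and Neat1 was at 0.50. Near Kcnq1ot1, 659 genes had a median of -0.27, and Kcnq1ot1 was at 1.80. Near Lncpint, 559 genes had a median of -0.27, and Lncpint was at 2.22. The highest of these genes were at 0.71 (Sod3) near Malat1, 0.3 (Kmt2d) near Neat1 and 0.45 (Crebbp) near both other RNAs, so 0 of them were above any of the 4. Against no4sU after 120 min, 16 genes of like turnover were above Neat1 and 0 above Malat1, Kcnq1ot1 or Lncpint. The RNAs were chosen with these fold changes in view, so the contrast is a description.

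**Figure D5:**
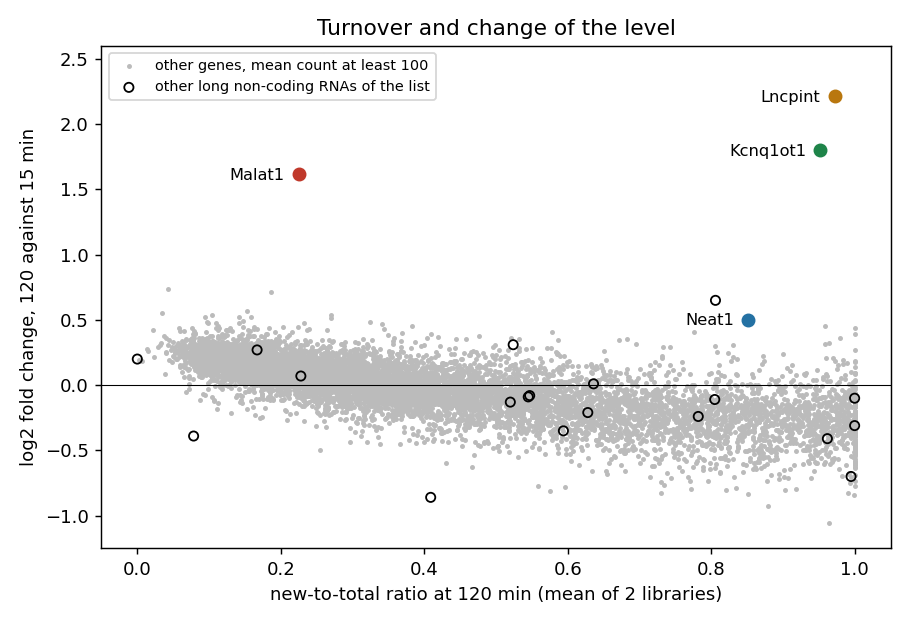
Log2 fold change of 120 against 15 min (vertical axis) by new-to-total ratio after 120 min (mean of 2 libraries), with grey points for genes of mean count at least 100, open circles for the other long non-coding RNAs and coloured points for the 4 RNAs. Malat1 at 0.225 and Kcnq1ot1 and Lncpint at 0.952 and 0.973 lie above the grey points, and Neat1 at 0.852 lies just above those around it.

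Other known long non-coding RNAs moved in both directions. Of 50 symbols listed, 26 were in the table and 19 were tested. In 120 against 15 min, 2 of them rose and 4 fell by edgeR's quasi-likelihood test (7.93% and 11.3% of all tested genes), with a median log2 fold change of -0.11 where all tested genes had 0.01. Dnm3os, the host of miR-199a and miR-214, was at 27.2 and 23.9 CPM in the 15 min libraries A and B and at 15.9 and 15.6 after 120 min, with no overlap. Its log2 fold change was -0.70 ± 0.120 (SE, edgeR adjusted p = 0.000719), with an NTR of 0.995 after 120 min. Tug1 was at 173 and 163 CPM after 15 min and 132 in both 120 min libraries (-0.35 ± 0.0646, edgeR adjusted p = 0.00118). Dnm3os and Tug1 kept their calls with any single library left out.

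The other calls in that list were less stable. Norad (listed as 2900097C17Rik), a cytoplasmic RNA that binds Pumilio proteins, fell by 0.24 on the log2 scale (edgeR adjusted p = 0.00487). It lost its call without 15 min replicate A (edgeR adjusted p = 0.0767) or 120 min replicate B (edgeR adjusted p = 0.0544). Mir17hg, the host of the miR-17 cluster, was at -0.41 (edgeR adjusted p = 0.0457) and lost its call with any of the 4 libraries left out and by DESeq2 (adjusted p = 0.0867). Of the rises, Meg3, an imprinted RNA, was at 0.27 (edgeR adjusted p = 0.0128) and lost its call without 15 min replicate B (0.159) or 120 min replicate B (0.227). Mirg, a microRNA host of the same domain, was at 0.65 (edgeR adjusted p = 0.0344) and lost its call with 3 of the 4 libraries left out singly (adjusted p from 0.0532 to 0.302) and when scaled by library size alone (0.0516). Against no4sU after 120 min, 0 of the 19 rose and 4 fell, where 5.43% and 8.78% of all tested genes did so by edgeR. Airn, which like Kcnq1ot1 is an unspliced imprinted antisense RNA, was at -0.09 (edgeR adjusted p = 0.727), with an NTR of 0.545.

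Of 21 tested genes for proteins of paraspeckles and speckles, 2 rose and 0 fell in 120 against 15 min by edgeR, with a median log2 fold change of 0.04. Over all tested genes 7.93% rose, so this share was near the background. They were Taf15 (0.22, adjusted p = 0.0359) and Hnrnpr (0.25, adjusted p = 0.0442), RNA-binding proteins, and both lost the call by DESeq2 (adjusted p of 0.0584 and 0.0659), with any of the 4 libraries left out, and when scaled by library size alone (0.114 for both). Srrm2, a core protein of speckles, was at 965 CPM after 15 min and 967 after 120 min, a log2 fold change of 0.00 ± 0.0741 (SE). The abundant Hnrnpa1 was at 0.07 ± 0.0518.

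Nuclear RNA decay genes, which encode the exosome and its cofactors, had 2 rises and 2 falls among 23 tested, with a median of -0.06. This was near the share over all tested genes, 7.93% and 11.3%. Ncbp2 (0.25), a subunit of the nuclear cap-binding complex, and Srrt (0.24), which binds that complex, rose. Zcchc8 (-0.28), of the exosome-targeting complex, and Nrde2 (-0.27), which restrains the exosome cofactor Mtrex, fell. In this order, their mean NTR after 120 min was 0.187, 0.239, 0.596 and 0.818. Their edgeR adjusted p-values were 0.0261, 0.00599, 0.0161 and 0.0301, and each lost its call in at least 3 of the fits without a single library. The abundant Xrn2, the nuclear 5′ to 3′ exonuclease, was at -0.11 (edgeR adjusted p = 0.262).

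Among 11 genes for silencing partners of these RNAs, 3 rose and 3 fell by edgeR, with a median of -0.02 (7.93% and 11.3% of all tested genes rose and fell). The falls were the Polycomb core subunits Eed, Suz12 and Ezh2. Their mean NTR after 120 min was 0.718, 0.474 and 0.433, and that of the rises Ehmt2, Rbbp4 and Rbbp7 was 0.307, 0.181 and 0.125. The genes of like turnover above also had medians below 0 at a high NTR and above 0 at a low one. The part of turnover in these changes was not tested. Eed was at 54.0 and 51.2 CPM after 15 min and 32.6 and 35.9 after 120 min (log2 fold change -0.62 ± 0.0757, edgeR adjusted p = 4.5e-05). Suz12 was at 159 and 155 CPM and then at 111 and 117 (-0.46 ± 0.0715, edgeR adjusted p = 0.000341), and both kept their calls with any single library left out. Ezh2, the methyltransferase, was at -0.28 (edgeR adjusted p = 0.0124) and lost its call without either 15 min library or without 120 min replicate B (adjusted p from 0.0773 to 0.221). The rises were Ehmt2 (0.19), a histone H3 methyltransferase, and the histone-binding Rbbp4 (0.17) and Rbbp7 (0.16), with edgeR adjusted p-values of 0.0168, 0.0209 and 0.0316. All of these rises lost their calls with any single library left out and when scaled by library size alone (adjusted p of 0.0832, 0.104 and 0.163).

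The genes around these RNAs were examined next. Kcnq1, on the opposite strand over Kcnq1ot1, had 3 reads in total over the 12 libraries and at most 1 in a library, so reads counted for Kcnq1 were near 0 at every time. No source states if strand entered the counting, so reads from either strand of this locus cannot be told apart. Cdkn1c, a growth inhibitor silenced through Kcnq1ot1, had 1 read in total. Of 8 tested genes in and beside the Kcnq1 imprinted domain, 0 were called by edgeR in 120 against 15 min. Their median log2 fold change was 0.10. The most abundant, Cd81 and Cars, were at 0.13 and 0.07 (edgeR adjusted p of 0.197 and 0.409). Against no4sU after 120 min, 1 of the 8 rose by edgeR, where 5.43% of all tested genes did. This was the growth factor gene Igf2, which lies beside the domain, at 0.45 ± 0.115 (SE, edgeR adjusted p = 0.0128). Igf2 lost that call without 120 min replicate A (edgeR adjusted p = 0.0957) or B (edgeR adjusted p = 0.0657).

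Of 11 tested genes around Malat1 and Neat1, 1 rose and 1 fell by edgeR, again near the 7.93% and 11.3% of all tested genes. Dpf2, a subunit of a chromatin remodeller, was at 76.9 and 76.8 CPM after 15 min and 61.5 and 59.7 after 120 min. Its log2 fold change was -0.34 ± 0.0708 (SE, edgeR adjusted p = 0.00254). The mean NTR after 120 min was 0.735 for Dpf2 and 0.153 for Ltbp3. Ltbp3, which binds latent TGF-beta, was at 0.22 (edgeR adjusted p = 0.00966) and lost its call without either 15 min library or without 120 min replicate A (adjusted p from 0.0629 to 0.125). Frmd8os, on the other strand 144 bases from Neat1, had 12 reads in total. Of 3 tested genes around Lncpint 0 were called, and the most abundant, Mkln1 and Copg2, were at -0.04 and -0.09 (edgeR adjusted p of 0.683 and 0.476). The nearest gene of the deposited table downstream of Lncpint was Gm27019, on the same strand and 19069 bases away. It had 34 reads in total and at most 9 in a library, too few to be tested. Its means were 0.0439 CPM after 15 min and 0.477 after 120 min. Mkln1os, the nearest of the deposited table on the other side, had 12 reads in total. Of 5 annotated genes that overlap Lncpint, 0 were in the deposited table.

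The genes with the profiles nearest to those of the 4 RNAs were listed. Likeness was the root mean square difference of log2(CPM + 1) over the 12 libraries, each profile centred on its own mean. The nearest genes to Malat1 were Spp1, Sh3bgrl and Col12a1, each at 0.43, where Malat1 itself varied by 0.59 around its mean. For Kcnq1ot1 they were Zfhx3 (0.51), Ogn (0.52) and Tnxb (0.52), against its own 0.69, and for Lncpint the same 3 genes at 0.64 to 0.67 against 0.83. Their log2 fold changes for 120 against 15 min were 0.41 to 0.73, well short of those of the RNAs. The nearest to Neat1 were Pdlim2 (0.1), Glrx (0.12) and Nmral1 (0.13), against its own 0.2.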

How the data were processed

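RNA of 12 libraries from NIH-3T3 cells (6 groups of 2) was analysed, with groups and replicate letters taken from the sample titles. The 4 RNAs and all gene lists were chosen with earlier results of these data known. The submitters' processing notes name cutadapt, Bowtie2 2.3.0 and STAR 2.7.10b with no role. Not given in the sources used here: counting tool, build, annotation, use of strand and any poly(A) selection.

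The authors deposited estimated counts per gene and library, unscaled between libraries, of which 20.4% were not whole (tolerance 1e-06). They were rounded for the tests. The new-to-total ratio was deposited as a fraction with 0.05 and 0.95 quantiles (a 90% interval), per the file headers. The deposited alpha and beta columns, each a score, were not used. No column of another sample was present (0 columns), and 0 rows lacked a gene.

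Library totals were 9917026 to 13739380 reads. Genes were filtered by filterByExpr (11564 kept), scaled by TMM and fitted with edgeR 4.0.16 in R 4.3.3 (quasi-likelihood, all 12 libraries in 1 fit, no covariate, common biological coefficient of variation 4.44%). Benjamini-Hochberg adjusted p-values below 0.05 over all tested genes were calls. DESeq2 1.42.0 was the other tool. The apparent half-life was the labelling time times ln 2 over the negative natural logarithm of the unlabelled share. Groups of 2 gave the SDs, and no depth interval was computed for CPM.

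Genes were named by a rule: the 4 RNAs, in each list the genes past the threshold in 120 against 15 min (at most 6) and its 2 most abundant ones, the 3 nearest profiles per RNA, and overlapping or nearest annotated genes, some of which are not reported here. Other genes are named only to say which gene was an extreme or a marker, or for its likeness in kind (Airn) or as a single call (Igf2), after their values were seen. Positions and transcript sequences come from GENCODE M21 (GRCm38), where 17376 gene IDs were found, and promoters from RefSeq. Python 3.11.15 with numpy 2.4.6, pandas 2.3.3 and matplotlib 3.10.9 was used. The fitting was tested on simulated data. Alternatives covered scaling, filtering, the groups fitted, a block for the replicate letter, DESeq2, leaving out each library, and other summaries of the new-to-total ratio.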

Additional observations from a re-analysis of the deposited data

How the results depend on the processing

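None of the 8 fold changes of the 4 RNAs (120 min against no4sU and against 15 min) changed direction under any alternative run. Leaving out single libraries gave log2 fold changes against no4sU of 0.72 to 1.72 for Malat1, 0.04 to 0.15 for Neat1, 1.75 to 2.11 for Kcnq1ot1 and 2.49 to 2.71 for Lncpint, and against 15 min of 1.55 to 1.68, 0.34 to 0.68, 1.75 to 1.85 and 1.99 to 2.47. The ratio of pre-existing Kcnq1ot1 at 120 over 15 min, 0.17, was 0.385 with the 0.05 quantile and 0.0609 with the 0.95 quantile of the new-to-total ratio. A pre-existing ratio for Lncpint was not computed, since 0 occurs in it. Of the values of single named genes under alternatives, 288 stayed on their side of the threshold, 86 no longer passed it, 5 newly passed it and 0 reversed.

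Counts of calls depended on the settings. With no filter on low counts, the calls were 9 after 15 min, 9 after 30 min, 95 after 60 min and 438 after 90 min against no4sU, where the filtered fit gave 0, 0, 2 and 161. After 15 and 30 min DESeq2 also made 0 and 0 calls, and at an unadjusted p under 0.05 there were 618 and 670 genes by edgeR and 246 and 291 by DESeq2. Library size alone gave 15 after 60 min and 284 after 90 min, and turned the split after 120 min from 628 higher and 1015 lower to 203 and 1684, and that against 15 min from 917 and 1311 to 426 and 1867. Only the groups compared gave 0 after 60 min, 2 after 90 min, 171 after 120 min and 3818 against 15 min. DESeq2 gave 8 after 60 min, 1049 after 120 min and 1439 against 15 min. Without single libraries the counts ran from 0 to 1336 after 15 min, 0 to 1363 after 30 min, 0 to 1213 after 60 min, 8 to 1442 after 90 min, 452 to 3533 after 120 min, and 657 to 1037 against 15 min. The cause was not tested.

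In the lists (120 against 15 min), single libraries left out gave 2 to 5 calls for other long non-coding RNAs, 0 to 0 for paraspeckle and speckle proteins, 0 to 1 for nuclear RNA decay, 2 to 3 for silencing partners and 1 to 2 for the Malat1 and Neat1 neighbours. Only the groups compared gave 5 for paraspeckle and speckle proteins, 10 for nuclear RNA decay and 5 for the Malat1 and Neat1 neighbours. That setting gave 3 for the genes in and beside the Kcnq1 domain. Library size alone gave 0 for paraspeckle and speckle proteins and 3 for silencing partners, and DESeq2 0 and 2 for paraspeckle and speckle proteins and nuclear RNA decay.

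Replicate letters did not pair the libraries: the deviations of replicates A correlated between -0.0421 and 0.0684 over 15 pairs of groups. With a replicate block, 4 genes passed after 60 min, 1737 after 120 min against no4sU and 2315 against 15 min, and Malat1 was at 1.17 against no4sU. A group with 1 library left is assumed to vary like the others.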
